A study of Arabidopsis thaliana with 12 samples.

Results

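The genes described here are 28 of the *Arabidopsis thaliana* genes whose transcripts had the lowest ratio of signal in the *stn8* mutant to signal in the wild type (WT) on an expression array. They were chosen by that ratio. A probe was taken when its annotation named exactly 1 gene, when it was above 0 on all 12 arrays, when its mean deposited intensity over the 6 WT arrays was at least 0.3, and when the mean over the 6 stn8 arrays was at most 0.4 of the WT mean, that is at least 2.5-fold lower. Of 3437 probes with values, 692 named 1 gene, 334 of these met the intensity limits, and 36 (10.8%) also met the ratio limit. Of the 36, 8 were left out by name, among them genes of photosystem proteins and of photosynthetic and redox enzymes. Each of the 28 genes had 1 probe that named it alone. The difference between stn8 and WT within these genes is what chose them, so it is given as a description and without a test.

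The samples were total RNA of 6 WT and 6 stn8 samples of ecotype Columbia 0, 1 array each, with the genotype taken from the sample titles because the source field calls all of them WT. The labels used here do not state the tissue, plant age, growth light, mutant allele or array maker, and none of 42 tissue marker genes listed for a check had a probe of its own, so the tissue was not checked. No probe named *STN8* alone, so the mutation itself was not checked either. Nothing in the labels says that the 6 samples of a group came from separate plants, so the spread between them may be technical. Array medians ran from 0.297 to 0.369 among WT samples and from 0.330 to 0.349 among stn8 samples, in units that the labels do not explain. WT arrays held 173 to 190 zeros and stn8 arrays 220 to 254. The highest value of an array ran from 166 to 193 among WT arrays and from 84.4 to 93.9 among stn8 arrays. The part of this difference in the fitted values was not tested. WT arrays of neighbouring numbers were alike, with medians of 0.326 and 0.328 on arrays 1 and 2, 0.369 and 0.368 on arrays 3 and 4, and 0.297 and 0.301 on arrays 5 and 6. WT arrays 5 and 6 stood apart from the other WT arrays in many genes, and results that rest on them are given below also without them. Arrays 3 and 4 were not left out together. A single value, that of WT array 5 in *AT5G53930*, stood far from all others of its gene. The number of arrays limits the precision. In total RNA, a lower signal can reflect less of a transcript per cell or fewer cells that make it, and these cannot be told apart.

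STN8 is a protein kinase of chloroplast thylakoids, and core subunits of photosystem II are among its substrates. Most chloroplast proteins are encoded in the nucleus, made in the cytosol and imported, and the transcripts of many such genes respond to light, to the redox state of the chloroplast and to the circadian clock. The genes below encode proteins of several compartments. For 19 of them a function is given as background knowledge of these loci. The symbols CUTA and CCL come from the annotation used, which gives the other 26 by locus identifier alone. For 9 genes no function is given here.

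The ratio of stn8 to WT ranged from 0.124 to 0.398 among the 28 genes, with a median of 0.302, whereas the median over the 334 named probes within the same intensity limits was 0.985. Of the 28 genes, 7 were at least 5-fold lower by the ratio of means, 10 were between 3-fold and 5-fold lower, and 11 were less than 3-fold lower. Among the 7, *AT5G53930* met the limit through 1 WT array. Another 4 of the 7, *AT4G39570*, *AT4G00170*, *AT3G26730* and *AT2G06040*, had stn8 means under 0.1, which limits their fold. The values of WT and stn8 did not overlap for 26 genes, and the stn8 values lay below the WT values in this way for 27.0% of all probes. A fit over all 3437 probes (limma, Benjamini-Hochberg adjustment, adjusted p threshold of 0.05) called 27 of the 28 genes lower in stn8, where it called 35.8% of all probes and 45.5% of the 334 named probes lower. Because the rule used this contrast, nothing is read from these counts. The fitted log2 fold changes, stn8 minus WT on quantile-normalized values, ran from -3.22 to -1.03 with a median of -1.87, and the median over all probes was 0. Normalization moved the values of bright genes by more than the SE given below. Without it, *CCL* was at -1.66 in place of -2.06, *CUTA* at -2.12 in place of -2.42 and *AT1G62250* at -2.88 in place of -3.22. *AT4G31530* was at -1.39 in place of -1.60, and *AT1G13990* at -1.32 in place of -1.66. Several dim genes moved the other way, as given below.

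**Figure D1:**
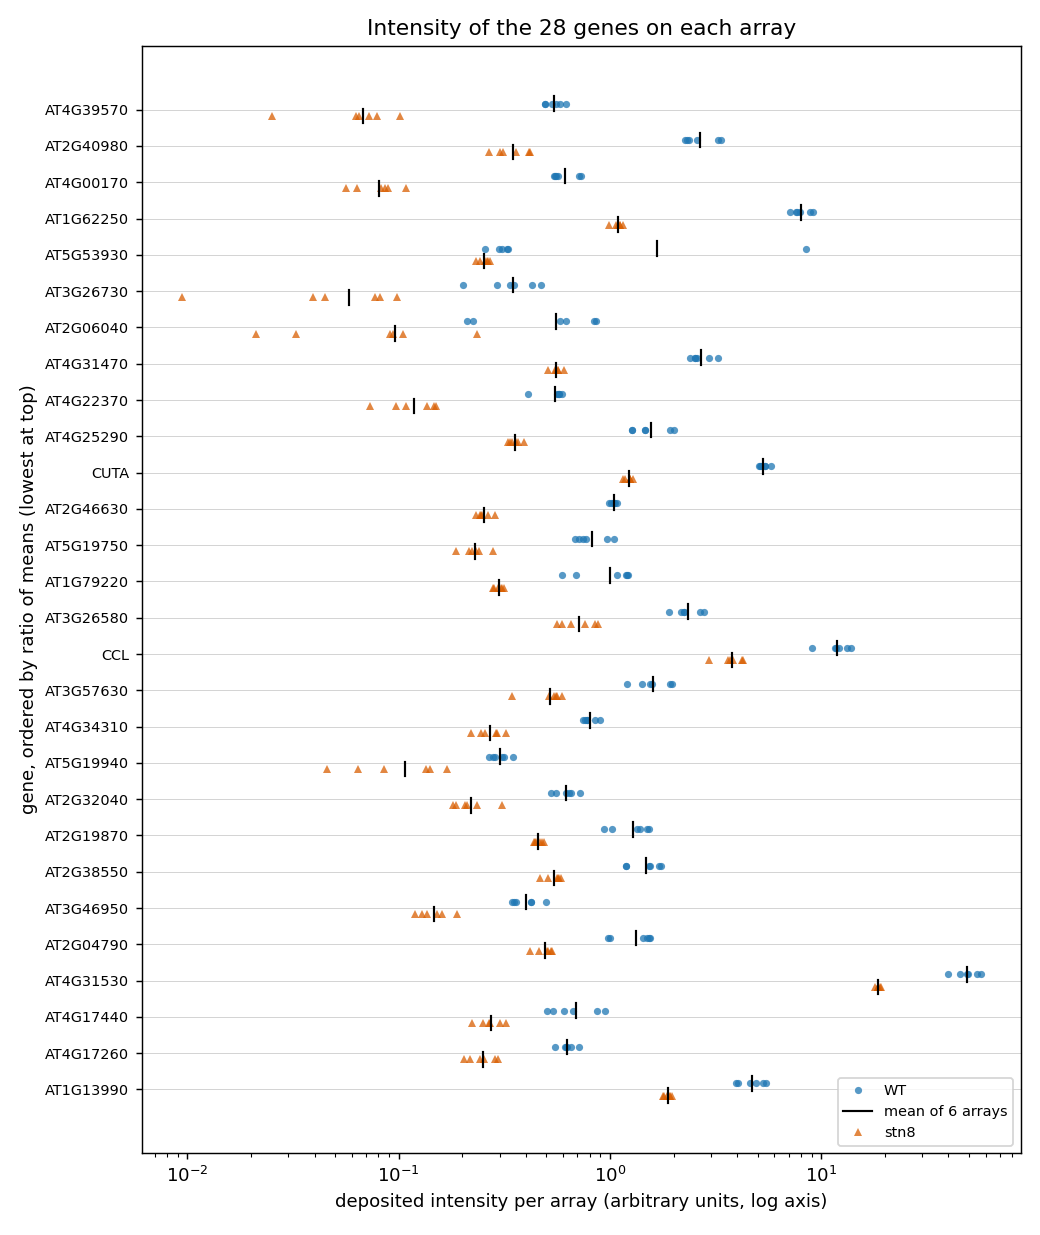
Deposited intensity (log axis, arbitrary units) of each of the 28 genes on each of the 6 WT arrays (circles) and 6 stn8 arrays (triangles), with the mean of each group as a black bar; genes are ordered by the ratio of means. In 26 genes the 6 triangles lie to the left of the 6 circles, and in AT5G53930 a single WT array at 8.45 lies far to the right of the other 11 values.

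The genes are ordered below by the kind of protein they encode, an order made by hand that overlaps between kinds. Proteins known from plastids come first. *CUTA* encodes a copper-binding protein of the chloroplast. Its intensity was 5.07 at the lowest, 5.27 at the median and 5.75 at the highest in WT, against 1.16, 1.24 and 1.28 in stn8 (ratio of means 0.231, log2 fold change -2.42 ± 0.04, the error being the SE of the fit). The highest stn8 array was thus far below the lowest WT array, and both groups were tight, with an SD of log2 intensity of 0.07 in WT and 0.06 in stn8. *AT5G19940* encodes a fibrillin, one of the lipid-associated proteins of plastid membranes and plastoglobules. It had 0.267, 0.297 and 0.346 (lowest, median, highest) in WT and 0.0456, 0.110 and 0.170 in stn8 (ratio 0.355, log2 fold change -1.42 ± 0.23), with groups that did not overlap but with a far wider spread on the log2 scale in stn8 (SD 0.74) than in WT (SD 0.14). At these low signals its log2 fold change was -1.63 without normalization and -1.68 with median centring. It was -1.05 after a pseudocount of 0.0584 was added. The brightest spot within 4 spot numbers of its probe had a stn8 mean of 17.6. The part of that spot in the result was not tested.

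*AT2G32040* encodes a membrane transporter of folates and pterins in the chloroplast envelope. Its values were 0.525, 0.631 and 0.723 in WT and 0.181, 0.208 and 0.307 in stn8 (ratio 0.356, log2 fold change -1.57 ± 0.13), without overlap, and the means differed 2.81-fold. *AT2G38550* encodes a membrane protein of the family that exports fatty acids from the chloroplast. It had 1.19, 1.54 and 1.74 in WT against 0.468, 0.564 and 0.585 in stn8 (ratio 0.367, log2 fold change -1.65 ± 0.10). The WT arrays of this gene were split, with arrays 5 and 6 both at 1.19 and arrays 1 to 4 at 1.52 or above, and all of them lay above every stn8 array.

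Next come genes for organelle gene expression and RNA modification. Proteins of the mTERF family bind nucleic acids in plastids and mitochondria through helical repeats and act in transcription and RNA handling there. *AT1G79220*, a member of that family, had 0.592, 1.14 and 1.22 in WT and 0.279, 0.301 and 0.314 in stn8 (ratio 0.299, log2 fold change -1.81 ± 0.17). Its WT mean was 0.996 ± 0.281 (SD, n = 6) because WT arrays 5 and 6 stood at 0.691 and 0.592 and the other WT arrays at 1.08 or above, and even these 2 arrays were above all stn8 arrays. *AT3G46950*, of the same family, had 0.343, 0.391 and 0.500 in WT and 0.119, 0.144 and 0.189 in stn8 (ratio 0.369, log2 fold change -1.37 ± 0.14), 2.71-fold lower by the means. *AT2G19870* encodes an RNA methyltransferase of the SpoU family, enzymes that methylate the ribose of transfer and ribosomal RNA. It had 0.936, 1.36 and 1.52 in WT and 0.435, 0.456 and 0.487 in stn8 (ratio 0.357, log2 fold change -1.67 ± 0.11), and the stn8 values were close together (SD of log2 intensity 0.07 against 0.30 in WT).

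Among genes tied to the clock and to light were *CCL* and *AT4G25290*. *CCL* (CCR-like) is known for a transcript whose level and stability follow the circadian clock and which is degraded through a downstream element in its mRNA. Its intensity was 8.996, 11.9 and 13.8 in WT and 2.94, 3.77 and 4.27 in stn8 (ratio 0.316, log2 fold change -2.06 ± 0.10), which is 3.17-fold lower by the means. Array 3 gave the lowest value in both groups, at 8.996 in WT and 2.94 in stn8. The labels do not state the hour of harvest. *AT4G25290* encodes a protein related to DNA photolyases, enzymes that use light to repair DNA. It had 1.27, 1.46 and 2.01 in WT and 0.330, 0.350 and 0.393 in stn8 (ratio 0.226, log2 fold change -2.29 ± 0.13), without overlap.

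Other genes encode proteins of membranes, walls or the secretory route. *AT4G00170*, 7.54-fold lower by the means, encodes a protein of the family that binds vesicle-associated membrane proteins at the endoplasmic reticulum. Its values were 0.544, 0.561 and 0.731 in WT and 0.0560, 0.0843 and 0.108 in stn8 (ratio 0.133, log2 fold change -2.77 ± 0.16). The stn8 mean was under 0.1, and on values so near 0 the fitted log2 fold change moved with the treatment of low signal, from -2.77 in the fit to -2.94 without normalization and -2.19 after a pseudocount of 0.0584 was added. *AT4G31470* encodes a secreted protein of the family that includes the pathogenesis-related protein PR-1. It had 2.39, 2.56 and 3.26 in WT and 0.511, 0.561 and 0.603 in stn8 (ratio 0.206, log2 fold change -2.50 ± 0.08), and the groups were far apart.

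*AT5G19750* encodes an integral membrane protein of the family of the peroxisomal protein PMP22 and the mitochondrial protein Mpv17. It had 0.679, 0.756 and 1.04 in WT against 0.187, 0.227 and 0.280 in stn8 (ratio 0.280, log2 fold change -1.91 ± 0.12), 3.57-fold lower by the means. *AT3G57630* encodes an exostosin-like glycosyltransferase, a class of enzymes that add sugars to wall polymers and wall proteins. It had 1.203, 1.56 and 1.96 in WT and 0.342, 0.550 and 0.594 in stn8 (ratio 0.324, log2 fold change -1.84 ± 0.16), and stn8 array 3, at 0.342, stood below the other stn8 arrays, of which the lowest was 0.512. Neither gene had overlapping groups.

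Among genes for proteins with folds of metabolic enzymes, *AT4G31530* encodes a protein with an NAD(P)-binding Rossmann fold, a domain of many dehydrogenases and reductases. Its intensity was 39.6, 49.2 and 56.7 in WT and 18.0, 18.6 and 19.3 in stn8 (ratio 0.379, log2 fold change -1.60 ± 0.07). The 6 stn8 arrays agreed within a log2 SD of 0.03, the smallest spread of the 28 genes in stn8, against 0.19 in WT. *AT4G17260* encodes lactate dehydrogenase, which regenerates NAD+ from NADH when respiration lacks oxygen, and had 0.551, 0.622 and 0.716 in WT and 0.204, 0.248 and 0.296 in stn8 (ratio 0.397, log2 fold change -1.41 ± 0.08). *AT4G34310* encodes a protein of the alpha/beta hydrolase fold, a fold shared by lipases, esterases and related enzymes. It had 0.746, 0.779 and 0.901 in WT and 0.220, 0.272 and 0.320 in stn8 (ratio 0.337, log2 fold change -1.67 ± 0.09), again without overlap.

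The remaining genes with a function given here encode proteins of protein contacts and turnover. *AT4G39570* encodes a protein of the kelch-repeat family, many of whose plant members are substrate adaptors of ubiquitin ligases, and had the lowest ratio of deposited means with all arrays, 0.124, next to 0.129 for *AT2G40980*. Leaving out 1 array at a time gave 0.111 to 0.139 for *AT4G39570* and 0.124 to 0.136 for *AT2G40980*, so their order is not settled. The values of *AT4G39570* were 0.490, 0.543 and 0.621 in WT and 0.0253, 0.0684 and 0.102 in stn8 (ratio 0.124, log2 fold change -2.86 ± 0.19). The stn8 values were near 0, and the log2 fold change was -3.12 without normalization and -2.18 with the pseudocount. The brightest spot within 4 spot numbers of this probe had a WT mean of 13.1, and the part of that spot in the result was not tested. *AT3G26730* encodes a RING-domain protein, the domain of a large class of ubiquitin ligases, and had 0.201, 0.344 and 0.473 in WT and 0.00941, 0.0610 and 0.0977 in stn8 (ratio 0.168, log2 fold change -2.37 ± 0.31). The lowest stn8 array of this gene was close to 0 and the log2 SD in stn8 was 1.24. Its fitted log2 fold change of -2.37 was -2.85 without normalization and -1.64 with the pseudocount. *AT3G26580* encodes a tetratricopeptide-repeat protein, a repeat that binds other proteins. It had 1.90, 2.24 and 2.79 in WT and 0.558, 0.706 and 0.878 in stn8 (ratio 0.306, log2 fold change -1.93 ± 0.12), and was 3.27-fold lower by the means.

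The 9 genes for which no function is given here had ratios from 0.129 to 0.398. *AT2G40980* had 2.27, 2.46 and 3.34 in WT and 0.269, 0.336 and 0.420 in stn8 (ratio 0.129, log2 fold change -3.14 ± 0.14), 7.74-fold lower by the means. *AT1G62250* had 7.14, 7.79 and 9.10 in WT and 0.989, 1.102 and 1.16 in stn8 (ratio 0.135, log2 fold change -3.22 ± 0.05). Its fitted log2 fold change was the lowest of the 28 genes in the fit, but that of *AT4G39570* was lower without normalization (-3.12 against -2.88), with median centring (-3.17 against -2.93) and after removal of the dimmest probes (-3.34 against -3.22). Both genes had groups that were far apart, and WT arrays 5 and 6 of *AT2G40980* averaged 1.38 times arrays 1 to 4. *AT2G46630* was the steadiest gene within WT, with 0.992, 1.04 and 1.08 there and a log2 SD of 0.05, and it had 0.233, 0.247 and 0.285 in stn8 (ratio 0.243, log2 fold change -2.14 ± 0.05). *AT4G22370* had 0.407, 0.570 and 0.593 in WT and 0.0733, 0.122 and 0.1503 in stn8 (ratio 0.217, log2 fold change -2.14 ± 0.17). Its WT array 4, at 0.407, lay below the other WT arrays, which began at 0.564, and was still above every stn8 array. *AT2G04790* had 0.978, 1.47 and 1.54 in WT and 0.418, 0.506 and 0.531 in stn8 (ratio 0.369, log2 fold change -1.64 ± 0.13).

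Of the 28 genes, 2 had groups that overlapped. *AT2G06040* had 0.212, 0.598 and 0.856 in WT and 0.0210, 0.0923 and 0.235 in stn8 (ratio 0.173, log2 fold change -2.47 ± 0.51). Its WT values came in pairs of neighbouring arrays, at 0.856 and 0.843 on arrays 1 and 2, 0.578 and 0.618 on arrays 3 and 4, and 0.224 and 0.212 on arrays 5 and 6. The overlap came from stn8 array 5, at 0.235, while the other 5 stn8 arrays were at 0.105 or below. Without WT arrays 5 and 6 the ratio was 0.133 in place of 0.173 and the fitted log2 fold change -3.08. With all arrays kept, the fitted log2 fold change of -2.47 became -1.86 with the pseudocount.

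*AT5G53930* met the rule because of 1 array. Its WT values were 0.299, 0.308, 0.324 and 0.327 on arrays 1 to 4, 8.45 on array 5 and 0.255 on array 6, and its stn8 values lay between 0.232 and 0.270. WT array 5 was thus 27.9 times the mean of the other 5 WT arrays, which was 0.303 ± 0.0292 (SD). With all arrays the ratio of means was 0.153, and without WT array 5 it was 0.839, above the limit of the rule. It was also the 1 gene of the 28 that the fit did not call, at a log2 fold change of -1.03 ± 0.79, and without WT array 5 the fitted value was -0.21 and was called. On the 5 spots within 4 spot numbers that were above 0 on all arrays, WT array 5 was 0.575 to 1.01 times the mean of the other WT arrays. The high value was thus not shared by the spots with close numbers. Of the 3079 probes above 0 on all arrays, this was the 1 probe with WT array 5 at least 10 times the mean of the other WT arrays.

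At the edge of the rule neighbouring genes had nearly equal ratios. Just inside the limit of 0.4 lay *AT4G17440* (0.395), *AT4G17260* (0.397) and *AT1G13990* (0.398), and just outside lay *AT1G21660* (0.402), *AGL26* (0.404) and *AT1G30700* (0.408). *AT1G13990* had 3.95, 4.74 and 5.45 in WT and 1.79, 1.88 and 1.97 in stn8 (ratio 0.398, log2 fold change -1.66 ± 0.06). *AT4G17440* had 0.504, 0.637 and 0.950 in WT and 0.222, 0.269 and 0.322 in stn8 (ratio 0.395, log2 fold change -1.39 ± 0.19), with WT arrays 5 and 6 averaging 1.57 times arrays 1 to 4. When 1 array at a time was left out, 24 of the 28 genes stayed at or under 0.4 throughout, and the 4 that did not were these 3 and *AT5G53930*. Leaving out WT array 5 took *AT4G17440* to 0.417 and *AT1G13990* to 0.409, and the highest value of *AT4G17260* was 0.411, without stn8 array 2. *AT5G53930* aside, no ratio moved by more than 1.40 times.

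**Figure D2:**
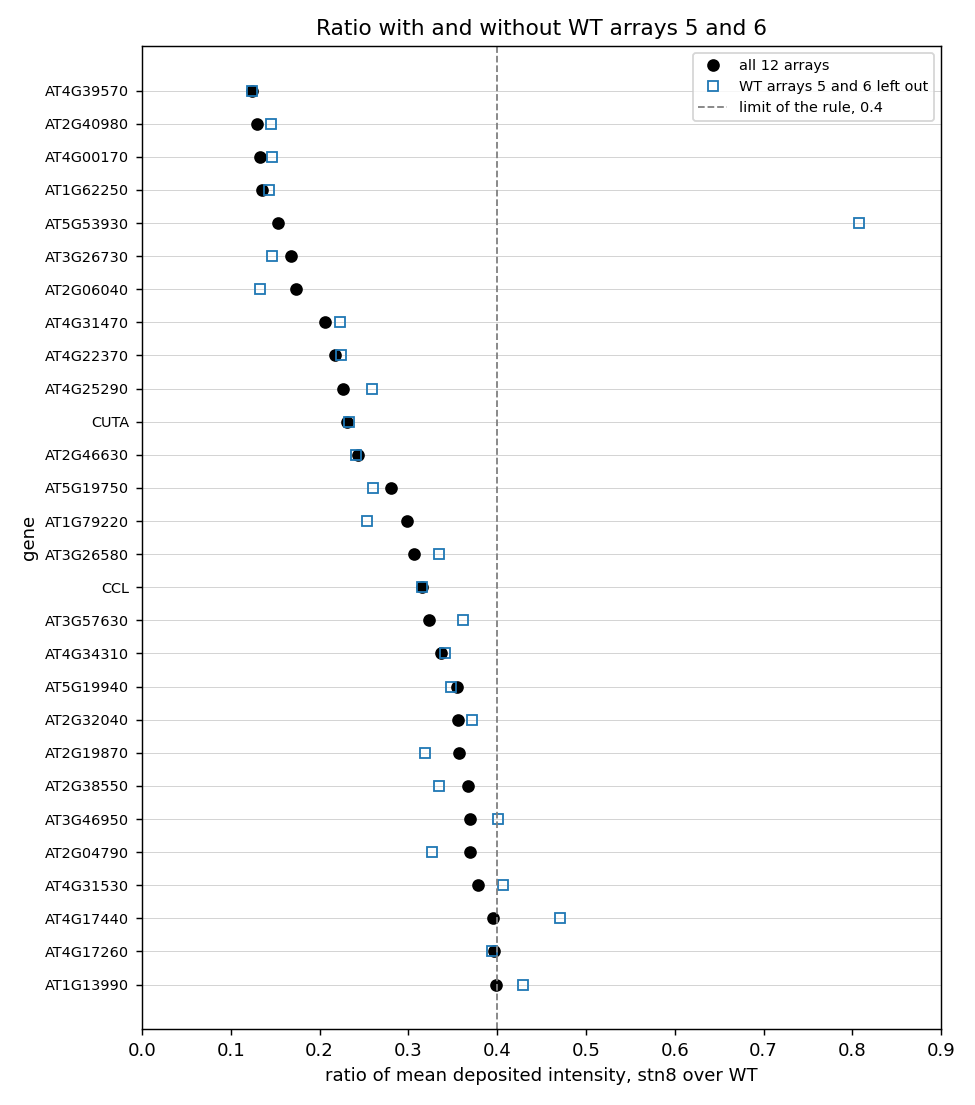
Ratio of mean deposited intensity, stn8 over WT, for each of the 28 genes with all 12 arrays (filled circles) and with WT arrays 5 and 6 left out (open squares); the dashed line is the limit of 0.4. AT5G53930 moves from 0.153 to 0.807, and AT3G46950, AT4G31530, AT4G17440 and AT1G13990 move to between 0.401 and 0.470.

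WT arrays 5 and 6 differed from WT arrays 1 to 4 in many of these genes, in both directions. The mean of arrays 5 and 6 over that of arrays 1 to 4 had a median of 1.07 over the 28 genes and was under 1 for 12 of them (42.9%), and for the 3079 probes without a zero the median was 0.918, with 62.3% under 1. It was lowest for *AT2G06040* (0.301), *AT1G79220* (0.547), *AT3G26730* (0.621), *AT2G04790* (0.659) and *AT2G19870* (0.683), and *AT5G53930* aside it was highest for *AT4G17440* (1.57) and *AT4G25290* (1.44). Against WT arrays 1 to 4 alone, 23 of the 28 genes were at or under 0.4, and against WT arrays 5 and 6 alone 22 were. Arrays 5 and 6 were not the only pair to differ. For the probes without a zero, the median of the value over the WT mean was 0.965 and 0.960 on WT arrays 1 and 2. It was 1.077 and 1.081 on arrays 3 and 4, and 0.930 and 0.944 on arrays 5 and 6. The labels do not say what set the WT arrays apart.

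The spread within a group is given as a description, because the genes were chosen for low stn8 means and log2 values spread more near 0, so that WT and stn8 cannot be compared by it. The median SD of log2 intensity was 0.21 in WT and 0.19 in stn8, and 14 of the 28 genes varied more in WT. For the 3079 probes without a zero these medians were 0.24 and 0.17, and 68.7% varied more in WT. After each array was divided by its median, 18 of the 28 genes varied more in WT. The 4 widest spreads in stn8 belonged to genes whose signals there were near 0, namely *AT2G06040* (1.26), *AT3G26730* (1.24), *AT5G19940* (0.74) and *AT4G39570* (0.69).

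**Figure D3:**
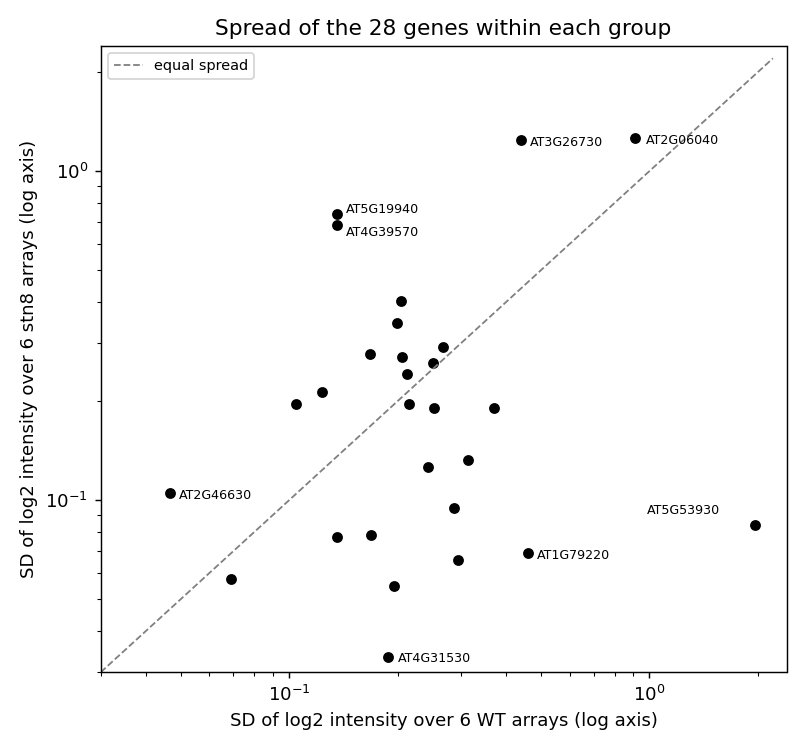
SD of log2 deposited intensity over the 6 WT arrays (horizontal, log axis) and the 6 stn8 arrays (vertical, log axis), 1 point for each of the 28 genes, with the dashed line at equal spread. Of the points, 14 lie on each side of the line, and AT5G53930 stands alone on the right at 1.97 in WT.

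Relatives of some of the genes also had probes of their own. The lists of relatives were written after the values of the 28 genes had been seen, and counts over them are descriptions, to be set beside the 35.8% of all probes called lower and the 70.4% called in either direction. Of 34 mTERF loci listed, 8 had a probe that named them alone, *AT1G79220*, *AT3G46950* and 6 others. Of these 6, the fit called 5 lower and 1 higher in stn8. *AT1G61990* had 0.464, 0.508 and 0.689 (lowest, median, highest) in WT and 0.283, 0.353 and 0.403 in stn8, with a log2 fold change of -0.73 ± 0.15 (SE, limma adjusted p = 0.00116), and *AT1G62010* (-0.46 ± 0.13) and *AT1G62150* (-0.48 ± 0.12) were called lower by less. The calls of *AT5G55580* (-0.26) and *AT3G18870* (-0.29) were lost without normalization, where their log2 fold changes were -0.14 and -0.03, and with median centring, and those of these 2 genes and *AT1G62010* were lost with neighbouring arrays averaged. *AT4G09620*, also of this family, went the other way, from 2.64, 3.69 and 4.65 in WT to 40.8, 48.7 and 53.9 in stn8 (3.64 ± 0.18, limma adjusted p = 6.37e-09). With neighbouring arrays averaged its limma adjusted p was 0.000358, and that of *AT1G61990* was 0.0372. The probes of this family did not share a direction.

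Of 12 fibrillin loci, *AT5G19940* and 4 others had a probe of their own, and 3 of the 4 were called lower and none higher. *AT1G51110* had 0.144, 0.170 and 0.189 in WT and 0.0115, 0.0581 and 0.0844 in stn8 (-1.55 ± 0.35, limma adjusted p = 0.00211), and its call was lost with neighbouring arrays averaged (adjusted p = 0.0515). Its log2 fold change was -2.18 without normalization and -0.86 with the pseudocount. Its ratio of means, 0.291, was within the limit of the rule, but its WT mean of 0.170 was not. *AT2G35490* had 0.435 ± 0.0351 in WT and 0.243 ± 0.0575 (SD, n = 6) in stn8, with a log2 fold change of -0.91 ± 0.13, and *AT5G09820* was called lower at -0.46 ± 0.10. *AT2G46910*, at 0.457 ± 0.0662 in WT and 0.485 ± 0.0369 in stn8, was not called (-0.03 ± 0.07), and the sign of its log2 fold change turned without normalization (0.09) and with median centring (0.04).

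Among the SpoU loci, *AT4G38020* had 0.216, 0.252 and 0.267 in WT and 0.0226, 0.0535 and 0.0647 in stn8 (-1.94 ± 0.14, limma adjusted p = 2.00e-07), without overlap. With neighbouring arrays averaged its limma adjusted p was 0.000407. At these low signals its log2 fold change was -2.37 without normalization and -1.28 with the pseudocount. *AT5G15390* was also called lower, from 0.386 ± 0.0604 to 0.270 ± 0.0136 (SD, n = 6). These 2 were the other SpoU loci with a probe of their own. The other lists had at most 1 further probe. *AT5G58330*, a malate dehydrogenase listed with *AT4G17260*, was called higher at 0.17 ± 0.06 (limma adjusted p = 0.0258), and that call was lost with cyclic loess, with neighbouring arrays averaged and without WT arrays 5 and 6 (adjusted p = 0.0566), while *MAMI*, listed with *AT4G00170*, was not called with all arrays, at 0.799 ± 0.219 in WT and 0.824 ± 0.0459 in stn8 (log2 fold change -0.13 ± 0.16). The value of *MAMI* was 0.09 without normalization and 0.04 with median centring, and without WT arrays 5 and 6 it was -0.34 and was called lower (limma adjusted p = 0.0131). The lists for *AT4G25290*, *AT2G38550*, *AT2G32040*, *AT4G31470* and *AT5G19750* held no other gene with a probe of its own.

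**Figure D4:**
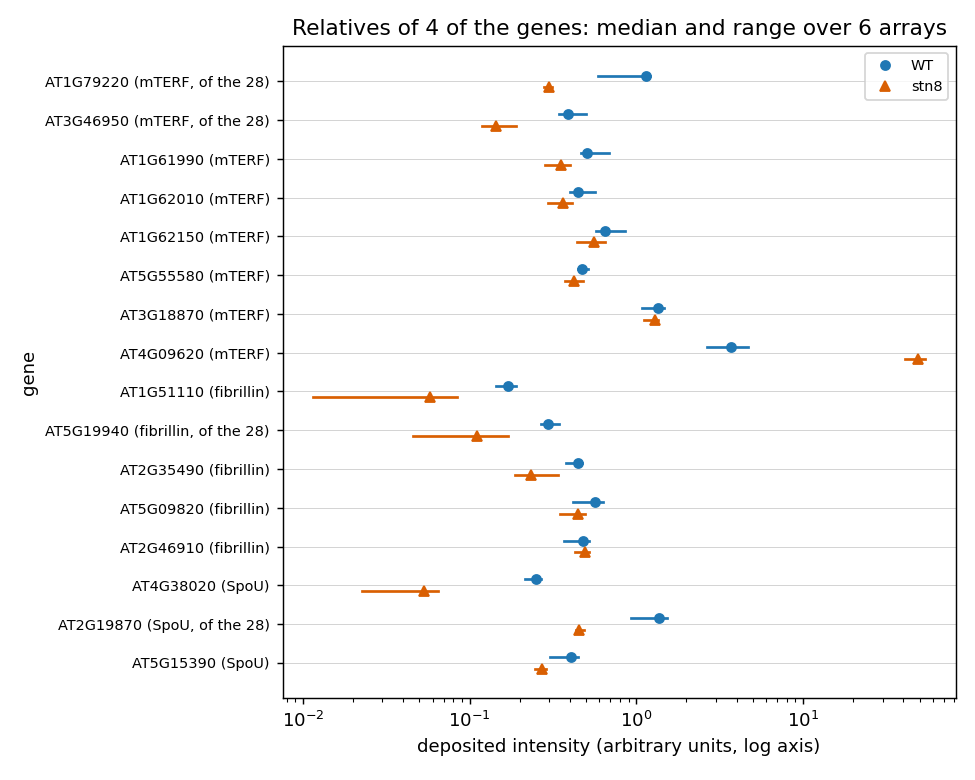
Deposited intensity (log axis, arbitrary units) of mTERF, fibrillin and SpoU genes with a probe of their own, as the median (circle for WT, triangle for stn8) and the range (line) over 6 arrays. AT4G09620 is far higher in stn8, at 40.8 to 53.9 against 2.64 to 4.65, while the 4 genes marked as of the 28 are lower in stn8.

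Probes that named one of the 28 genes together with other genes were not used by the rule, and there were 4. Such a probe cannot be assigned to any of its genes. The probe that named *AT3G46950* among 4 genes ran from 0.620 to 1.097 on the WT arrays, while the stn8 arrays gave 3.35 to 3.86 (log2 fold change 1.89 ± 0.14, limma adjusted p = 2.47e-07). The probe that named *AT4G31530* among 3 genes ran from 0.719 to 1.15 on the WT arrays, while the stn8 arrays gave 5.81 to 8.58 (2.66 ± 0.16, limma adjusted p = 3.45e-08). Both were higher in stn8, opposite to the probes that named these genes alone. With neighbouring arrays averaged, the limma adjusted p was 0.00117 for the probe of *AT3G46950* and others and 0.000583 for that of *AT4G31530* and others. The probe shared by *AT4G17440* and 1 other gene was not called (-0.29 ± 0.15, adjusted p = 0.104), and it was called lower with the sample number as a block (limma adjusted p = 0.0307) and with median centring (adjusted p = 0.0456). The probe shared by *AT2G38550* and 1 other gene was near 0 in both groups, with means of 0.0374 in WT and 0.0186 in stn8, and was not called.

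Spot numbers and positions in the genome were not used by the rule. Spot numbers are the probe identifiers, and whether close numbers lay close together on the array was not checked. A spot above an intensity of 10 lay within 4 spot numbers of 4 of the 28 probes in WT (14.3%, against 6.11% of the probes above 0 on all arrays) and of 4 in stn8 (14.3%, against 8.09%). These were *AT4G39570*, *AT3G26730*, *AT4G25290* and *AT1G13990* in WT and *AT2G40980*, *AT3G26730*, *AT4G25290* and *AT5G19940* in stn8, and the part of those spots in the results was not tested. The 22 genes with no such spot within 4 spot numbers in either group had a median ratio of 0.311, against 0.197 for the other 6. The bright spot close in number to *AT1G13990* was that of *CCL*, 2 spot numbers away, and *AT2G38550* and *AT2G04790* had consecutive spot numbers. On these 2 spots the WT arrays followed the same split. Arrays 5 and 6 were at 1.19 and 1.19 for *AT2G38550* and at 0.9998 and 0.978 for *AT2G04790*. These values lay below arrays 1 to 4 of each gene.

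By the TAIR10.1 gene table, 9 of the 28 genes (32.1%) lay on chromosome 4 and 8 (28.6%) on chromosome 2, where 17.4% and 18.0% of the named probes lay. On chromosome 1 lay 3 (10.7%), against 25.1% of the named probes, and on chromosome 5 also 3 (10.7%), against 20.7%. These shares are over the 690 named probes matched to that table, not over the 334 within the intensity limits from which the rule chose. *AT3G26730* and *CCL* were next to each other among the protein-coding genes of that table, and *AT4G31470* and *AT4G31530* were 6 genes apart. Other genes at most 2 places away in that table with a probe of their own went both ways. *AT2G38570*, near *AT2G38550*, was at 0.197 in WT and 0.462 in stn8 and was called higher (1.22 ± 0.10, limma adjusted p = 4.40e-07), and *OTP70*, near *AT4G25290*, was not called (0.23 ± 0.10). *AT1G13970*, near *AT1G13990*, was at 0.237 in WT and 0.0210 in stn8 and was called lower (-5.59 ± 1.64, limma adjusted p = 0.00978). Its stn8 mean was near 0, which limits this log2 fold change, and its ratio of means was 0.0887. Other settings, neighbouring arrays averaged included, are not given for *AT1G13970*, *AT2G38570*, *OTP70* or *AT5G53920*. *AT5G53920*, next to *AT5G53930*, was at 0.216 in WT and 0.570 in stn8 and was called higher (1.38 ± 0.07, limma adjusted p = 9.28e-09), while the low ratio of *AT5G53930* itself rested on WT array 5.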

How the data were processed

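Intensities deposited by the authors for 12 arrays (6 WT, 6 stn8) were used as they stood. Their values spread like linear, not log, signals; the labels do not state the authors' background correction or scaling. All 12 value columns were used, and 2 of 3439 rows without values were left out. Probe annotation named 1 gene for 692 probes, several for 869 and did not list 1876; 690 of the 692, and all 28 genes here, matched the TAIR10.1 gene table.

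Ratios are those of deposited means. For the fit, a zero took the lowest value above 0 on its array, log2 values were quantile normalized, and groups were tested by limma 3.58.1 under R 4.3.3 (lmFit, eBayes, two-sided, 6 against 6, adjusted over 3437 probes, threshold 0.05). The code of the fit was run on simulated independent arrays without zeros. Such data cannot test it for neighbouring arrays that are alike or for zeros, both of which these data hold. Figures used matplotlib 3.10.9 under Python 3.11.15.

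The members and lists were chosen with earlier results of these data known. The naming rule gave full values to the 12 genes with the lowest ratio, the 8 brightest in WT and those of known function, and took 3 genes on each side of the ratio limit; the remaining genes were given the same values. Classes planned by words in gene descriptions could not be formed, because the annotation used held no such words for these genes. Planned promoter and protein descriptions were not made.

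Same-numbered arrays of WT and stn8 shared part of their deviation from the mean of their group (r from 0.12 to 0.16 in all 6 pairs, against -0.12 to 0.06 for arrays of different number), so the sample number, taken from the titles, was used as a block in an alternative fit.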

Additional observations from a re-analysis of the deposited data

Results flagged for a closer look

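A sample far from the others of its group was looked for in the 56 groups of 6 values of the 28 genes, and 3 stood out, where chance gives about 1 in 20. *AT5G53930* in WT had array 5 at 8.45 with the next value at 0.327. *AT4G22370* in WT had array 4 at 0.407 with the next value at 0.564. *AT3G57630* in stn8 had array 3 at 0.342 with the next value at 0.512. In the latter 2 genes the groups did not overlap, and only in *AT5G53930* did the array decide whether the gene met the ratio limit.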

How the results depend on the processing

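Because the rule chose the 28 genes by this contrast on the same arrays, nothing is read from the counts of these genes below. In the fit with all arrays, 35.8% of all probes were called lower. All 586 fitted log2 fold changes of the 28 genes under other settings stayed negative, and 584 kept their side of the threshold. The exceptions were *AT5G53930* without WT array 5 (-0.21) and without WT arrays 5 and 6 (-0.23), an alternative added after the data were seen. Of the genes tested, 27 of 28 were called lower without normalization, with median centring, cyclic loess, neighbouring arrays averaged, the pseudocount, or a robust fit with a trend, 25 of 26 after removal of the dimmest probes, and 27 to 28 when 1 array was left out. With the sample number as a replicate block 27 were called, and 2477 probes in all in place of 2421; the block changed no call among the 28 genes. Over all settings 1865 to 2494 probes were called, the lowest among the 2292 probes left without the dimmest; of the full 3437, the fewest were the 2011 with neighbouring arrays averaged. The median ratio of 0.302 moved to 0.264 with quantile-normalized intensities, where 27 genes met the limit and 7 others met the whole rule; the cause was not tested. It was 0.291 after division by array medians and 0.316 as a ratio of medians, where 26 met it, 25 met the whole rule and 4 others entered, and 0.295 to 0.318 when 1 array was left out, with 25 to 28 genes at or under 0.4. Signals near 0 limit the fold of *AT4G39570*, *AT4G00170*, *AT3G26730* and *AT2G06040*, the 4 genes with stn8 means under 0.1. They also limit that of *AT5G19940*, with a stn8 mean of 0.107, whose log2 fold change was -1.05 with the pseudocount.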
